A study of Mus musculus with 6 samples.

Results

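Macrophages carry a recognizable set of transcripts, and 10 of these were examined in primary muscle cells of the mouse oviduct: Csf1r, Adgre1, Cd68, Lyz2, Mrc1, Cd163, Lyve1, Ptprc, Tyrobp and Fcer1g. They were chosen by name, with earlier results of these data known. Each was found in the deposited table through its Ensembl identifier, giving 10 of 54232 genes. All 10 had enough counts to pass the filter on low values, so each was among the 15376 genes tested.

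The libraries came from oviducts of mice aged 8 to 12 weeks on day 2 of pregnancy after mating with stud males, 3 from animals whose genotype the labels give as WT and 3 from Pbrm1 cKO animals, which lack Pbrm1 conditionally. The protein made from Pbrm1 belongs to the PBAF form of the SWI/SNF complexes, which move nucleosomes. For its cKO line the study describes floxed Pbrm1 with a cre expressed from the progesterone receptor gene (PR-IRES-cre), which acts in cells that express this receptor, while a supplementary legend on oviductal cells names floxed controls where the labels write WT. Minced tissue was digested with trypsin, collagenase and dispase, filtered and plated for 4 h and a further 2 h before total RNA was made. No step that the labels describe selected cells by a surface marker. The labels name neither a strain nor any pooling of animals, so p-values measure only the spread between these libraries. The comparison asks how expression in these cells differs when Pbrm1 is deleted, and here whether the macrophage transcripts that accompany the muscle cells differ, and whether they do so to the same extent.

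Macrophages live in most tissues, including the wall of the oviduct, where they clear debris and dying cells, sense injury and present antigen. They depend on the receptor encoded by Csf1r, whose ligands are made by neighbouring cells. Some settle early in life and renew in place, often with high levels of scavenger receptors such as those encoded by Mrc1, Cd163 and Lyve1, whereas others derive from monocytes recruited from blood, which begin with Ccr2 and often gain the class II antigen-presenting genes.

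The libraries held between 15390818 and 18947947 counts, at which 3 counts corresponded to 0.159 to 0.193 CPM (counts rescaled so that libraries of different size and composition can be compared, using edgeR's normalization factors). The deleted gene itself had a mean of 175 ± 7.09 CPM over the WT libraries and of 45.6 ± 4.39 CPM over the cKO libraries (SD, n = 3), with no overlap between the groups (edgeR log2 fold change -1.94, adjusted p = 9.13e-11). All 10 smooth muscle markers of the list passed the filter, which does not show that the cells were pure, since all 10 epithelial and all 10 blood endothelial markers passed too. The smooth muscle markers included Acta2, smooth muscle actin, with means of 1287 ± 33.5 CPM over WT and 1536 ± 131 CPM over cKO libraries, and Des, the muscle intermediate filament desmin, at 239 ± 5.06 and 554 ± 46.96 CPM. Mitochondrial genes took 7.95% to 8.24% of the counts in WT and 6.88% to 7.81% in cKO.

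Macrophage transcripts formed a small part of every library. The 10 markers summed to 679, 683 and 733 CPM in WT replicates 1, 2 and 3 and to 988, 1057 and 1005 CPM in the cKO replicates. Each cKO library was above each WT library. Lyz2 supplied 63.8% to 65.6% of that sum in WT and 60.2% to 62.7% in cKO, and without it the sums were 238, 247 and 252 CPM in WT against 393, 395 and 400 CPM in cKO.

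Of the 10 markers, 9 were higher in Pbrm1 cKO at an edgeR adjusted p under 0.05 and none was lower. The same 9 had no overlap between the groups. Among all 15376 genes tested, 43.7% were called in either direction, 21.9% as higher and 21.8% as lower, and 53.5% had groups that did not overlap, with cKO above WT in 26.6% of those tested. The median log2 fold change of the 10 was 0.67, against 0.0016 over all tested genes. Rises ran from 1.37-fold for Lyz2 and Adgre1 to 3.11-fold for Mrc1, and Lyve1 was the marker that did not pass the test. In RNA from mixed cells, more macrophages and more RNA of a gene per macrophage cannot be told apart.

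**Figure D1:**
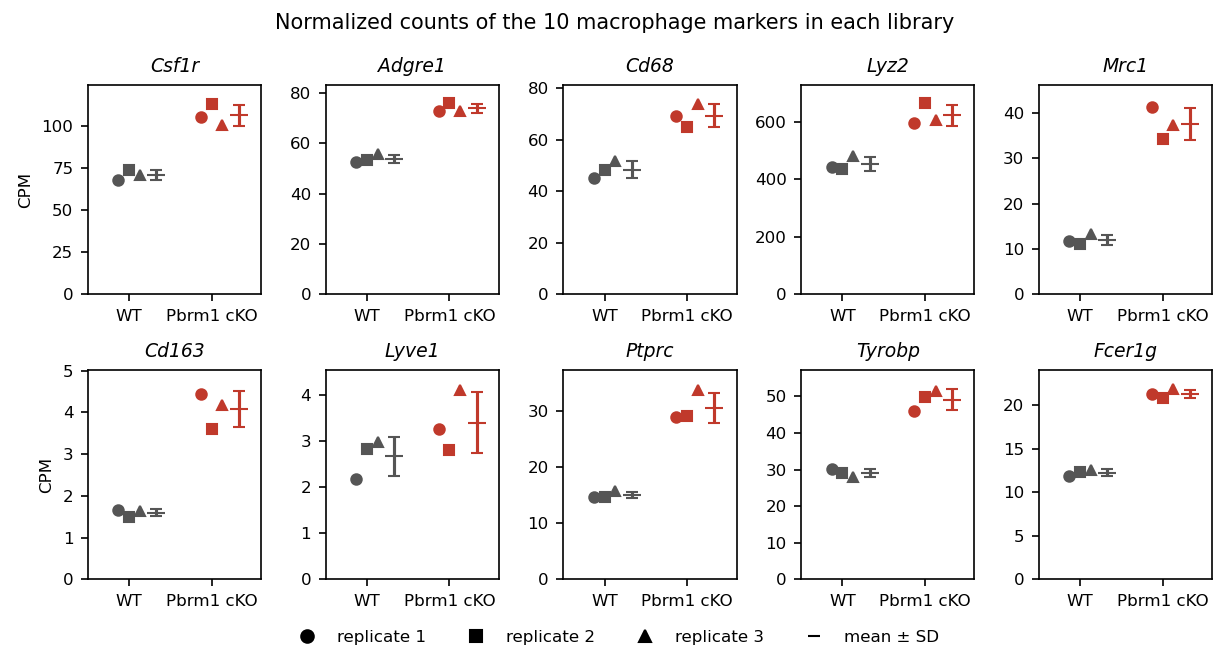
Normalized counts (CPM, each axis from 0) of the 10 markers in the 3 WT libraries (grey) and the 3 Pbrm1 cKO libraries (red), with replicates 1 to 3 as circle, square and triangle and the mean ± SD at the right of each group. In every panel but that of Lyve1 the 3 red points sit above the 3 grey points.

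The core identity genes were examined first. Csf1r (ENSMUSG00000024621.15; GRCm38 chromosome 18, 61105572 to 61132149, plus strand) encodes the receptor for the growth factors CSF1 and IL-34 that macrophages need to survive. It was at 67.8, 73.9 and 70.7 CPM in WT and at 105.5, 113 and 101 CPM in cKO replicates 1, 2 and 3. The lowest cKO library stood well above the highest WT library. Csf1r rose 1.504-fold (95% interval 1.39 to 1.63; log2 fold change 0.59, SE 0.055, edgeR adjusted p = 1.95e-06), and 9.41% of the genes tested had a larger rise.

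Neither ligand of this receptor passed the test. Csf1, which encodes the main ligand, was abundant at 2362, 2383 and 2304 CPM in WT and 2189, 2306 and 2121 CPM in cKO. The groups overlapped, since cKO replicate 2 lay above WT replicate 3, and the difference did not pass the test (log2 fold change -0.09, SE 0.045, edgeR adjusted p = 0.12). Il34, which encodes the other ligand, averaged 0.795 ± 0.132 CPM in the WT libraries and 0.553 ± 0.350 CPM in the cKO libraries, and it too did not pass (log2 fold change -0.51, edgeR adjusted p = 0.338). Of the 4 colony stimulating factor genes, 3 were tested and 0 were called by edgeR, DESeq2 or limma-voom, and 0 had an unadjusted edgeR p under 0.05. Csf2 was at no more than 4 counts in any library.

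Adgre1 (ENSMUSG00000004730.14; chromosome 17, 57358686 to 57483529, plus strand) encodes F4/80, the surface protein by which mouse macrophages are usually recognized. Its levels were 52.7, 53.2 and 55.7 CPM in WT and 72.8, 76.0 and 73.0 CPM in cKO. The libraries of each group lay close together, with a coefficient of variation of 2.96% in WT and 2.45% in cKO, and the groups were well apart. The rise was 1.37-fold (95% interval 1.27 to 1.48; log2 fold change 0.46, SE 0.051, edgeR adjusted p = 9.0e-06).

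Cd68 (ENSMUSG00000018774.13; chromosome 11, 69664213 to 69666153, minus strand) encodes a glycoprotein of late endosomes and lysosomes in phagocytes. It was measured at 45.1, 48.1 and 51.7 CPM in WT and 69.3, 64.9 and 74.0 CPM in cKO. cKO replicate 2 was the lowest of its group but above every WT library. Cd68 rose 1.44-fold (95% interval 1.30 to 1.58; log2 fold change 0.52, SE 0.065, edgeR adjusted p = 2.53e-05).

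Lyz2 (ENSMUSG00000069516.8; chromosome 10, 117277331 to 117282321, minus strand) encodes lysozyme M, an enzyme that cuts bacterial cell walls and is made by macrophages and neutrophils. Its levels were 441, 436 and 481 CPM in WT and 595, 663 and 605 CPM in cKO, without overlap. Lyz2 rose 1.37-fold (95% interval 1.27 to 1.49; log2 fold change 0.46, SE 0.054, edgeR adjusted p = 1.49e-05). Its near-identical relative Lyz1 held only 8 to 20 counts per library, although reads that fit both genes equally were not counted for either.

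The scavenger receptors that are often high on resident macrophages came next, and they differed among themselves. Mrc1 (ENSMUSG00000026712.3; chromosome 2, 14229392 to 14332057, plus strand) encodes the mannose receptor CD206. The WT and cKO levels were well separated, at 11.9, 11.1 and 13.3 CPM in WT and at 41.3, 34.2 and 37.25 CPM in cKO. The lowest cKO library was far above the highest WT library. Mrc1 rose 3.11-fold (95% interval 2.72 to 3.56; log2 fold change 1.64, SE 0.091, edgeR adjusted p = 1.73e-08), and 0.995% of tested genes rose by more.

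Cd163 (ENSMUSG00000008845.9; chromosome 6, 124304656 to 124330527, plus strand) encodes the receptor that takes up complexes of haemoglobin and haptoglobin. It rested on few reads, with 28 counts in each of the 3 WT libraries and 79, 68 and 65 counts in cKO. This corresponded to 1.66, 1.497 and 1.64 CPM in WT and 4.44, 3.61 and 4.18 CPM in cKO, again without overlap. The rise was 2.55-fold with a wider interval than for Mrc1 (95% interval 1.95 to 3.32; log2 fold change 1.35, SE 0.179, edgeR adjusted p = 4.37e-05).

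Lyve1 (ENSMUSG00000030787.4; chromosome 7, 110850607 to 110863239, minus strand) encodes a hyaluronan receptor of lymphatic endothelium and of a subset of resident macrophages that lie along vessels. It held 37, 53 and 51 counts in WT and 58, 53 and 64 in cKO. These counts gave 2.19, 2.83 and 2.99 CPM against 3.26, 2.81 and 4.12 CPM. cKO replicate 2 lay below WT replicates 2 and 3, so the groups overlapped. The difference did not pass the test (1.27-fold, 95% interval 0.943 to 1.68; log2 fold change 0.33, SE 0.194, edgeR adjusted p = 0.186). This interval covers no change and also the rises estimated for Csf1r, Adgre1, Cd68 and Lyz2, and it ends below those estimated for the other markers. The spread between libraries was a coefficient of variation of 15.9% in WT and 19.5% in cKO, against the 14.6% and 13.1% that counting alone gives at this depth.

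Because Lyve1 is shared with lymphatic endothelium, 9 markers of that cell type were read beside it. Prox1, the transcription factor that specifies lymphatic endothelium, averaged 21.1 ± 0.579 CPM in the WT libraries and 19.8 ± 4.31 CPM in the cKO libraries (log2 fold change -0.10, edgeR adjusted p = 0.553). Of the 9 markers 7 were tested, 2 were higher and 2 lower, so 57.1% were called, against 43.7% of all tested genes. The median of their log2 fold changes was 0.10, and their summed level was 604 to 612 CPM in WT and 726 to 777 CPM in cKO. The level of Pdpn, a gene also expressed by stromal cells, made up most of that sum, at 345 ± 5.49 and 507 ± 38.7 CPM (log2 fold change 0.56, edgeR adjusted p = 2.19e-06). How much of the Lyve1 signal came from either cell type was not tested.

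**Figure D2:**
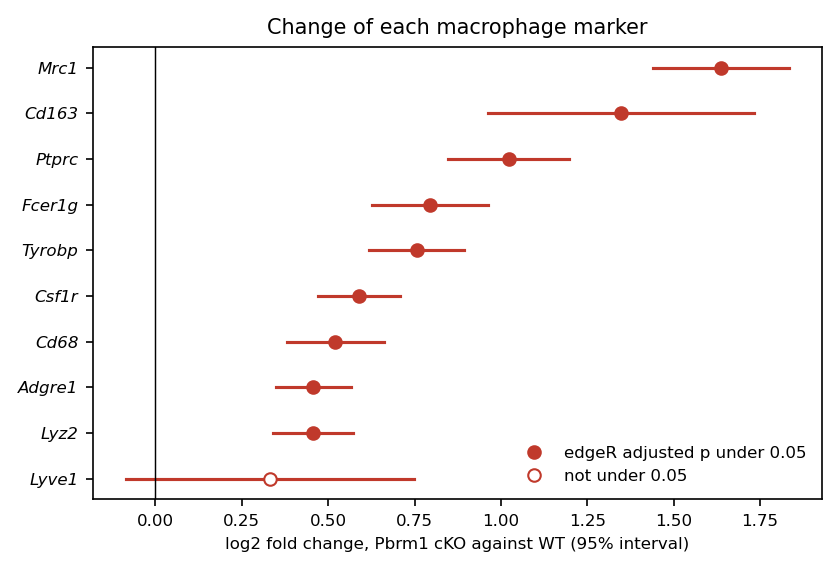
Log2 fold change of each marker, Pbrm1 cKO against WT, with its 95% interval from the edgeR fit (3 libraries per group, filled points for an adjusted p under 0.05). The points run from 0.33 for Lyve1, whose interval crosses 0, to 1.64 for Mrc1.

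The remaining markers are not restricted to macrophages. Ptprc (ENSMUSG00000026395.16; chromosome 1, 138062861 to 138175708, minus strand) encodes CD45, the tyrosine phosphatase found on all nucleated blood cells. It was at 14.7, 14.7 and 15.7 CPM in WT and 28.9, 29.2 and 33.7 CPM in cKO. Every cKO library lay well above the WT libraries, with cKO replicate 3 the highest. Ptprc rose 2.035-fold (95% interval 1.80 to 2.29; log2 fold change 1.02, SE 0.081, edgeR adjusted p = 4.32e-07), and 3.44% of tested genes rose by more.

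Tyrobp (ENSMUSG00000030579.10; chromosome 7, 30413760 to 30417585, plus strand) encodes DAP12, and Fcer1g (ENSMUSG00000058715.11; chromosome 1, 171229572 to 171234365, minus strand) encodes the common gamma chain of Fc receptors. Both are short membrane adaptors that carry an activation motif and pair with receptors that have none, and both are used by myeloid cells and natural killer cells. Tyrobp was at 30.1, 29.1 and 27.9 CPM in WT and 45.9, 49.9 and 51.3 CPM in cKO. Fcer1g was at 11.8, 12.35 and 12.6 CPM in WT and 21.3, 20.8 and 21.8 CPM in cKO. Both genes were higher in every cKO library than in any WT library. Tyrobp rose 1.69-fold (95% interval 1.54 to 1.86; log2 fold change 0.76, SE 0.064, edgeR adjusted p = 7.64e-07). Fcer1g rose 1.74-fold (95% interval 1.55 to 1.95; log2 fold change 0.80, SE 0.078, edgeR adjusted p = 2.9e-06).

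Levels were compared between genes only after division by exon length, as CPM per kb of exon. In WT, Lyz2 was highest at 344 ± 18.8 CPM per kb, followed by Tyrobp at 43.5 ± 1.61, Cd68 at 38.4 ± 2.63, Adgre1 at 16.6 ± 0.490, Csf1r at 14.5 ± 0.620 and Fcer1g at 14.02 ± 0.451 CPM per kb (SD, n = 3). The low members were Mrc1 at 1.899 ± 0.173, Lyve1 at 0.914 ± 0.145, Ptprc at 0.821 ± 0.0310 and Cd163 at 0.292 ± 0.0159 CPM per kb. The libraries of Csf1r and Fcer1g overlapped, as did those of Lyve1 and Ptprc, and no other neighbours in the WT order did. For Ptprc the annotated exons sum to 18313 bases, the longest of the 10, which lowers its level per length.

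In cKO the order of levels per length changed at 2 places. Fcer1g, at 24.4 ± 0.582 CPM per kb, stood above Adgre1 at 22.8 ± 0.558 and Csf1r at 21.8 ± 1.29, and Ptprc at 1.67 ± 0.148 stood above Lyve1 at 1.16 ± 0.227 CPM per kb. Adgre1 and Csf1r overlapped in cKO, whereas Fcer1g and Adgre1 did not, nor did Ptprc and Lyve1. Lyz2 remained the highest at 472 ± 27.8 CPM per kb and Cd163 the lowest at 0.747 ± 0.0782. For scale, Acta2 was at 722 CPM per kb in WT and 862 in cKO.

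**Figure D3:**
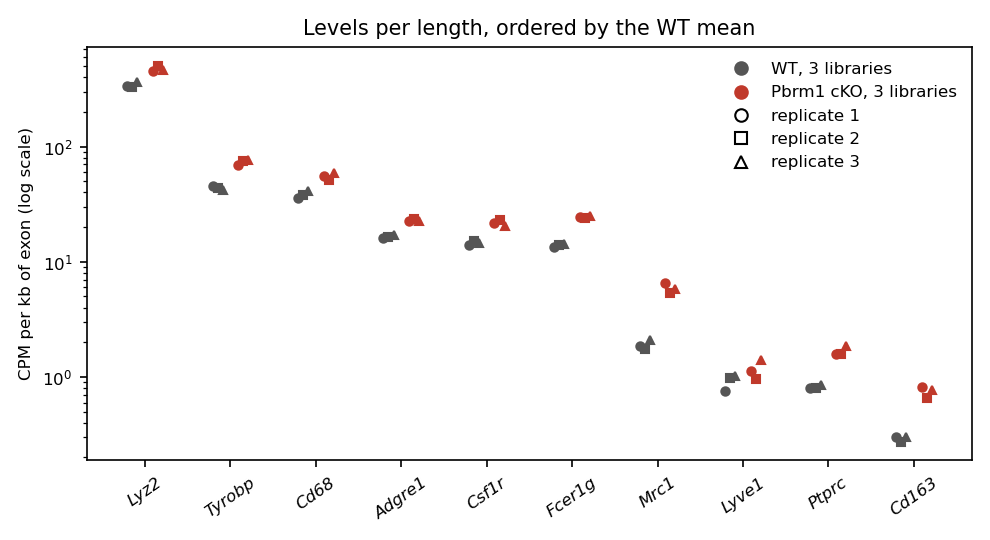
CPM per kb of exon (log scale) for the 10 markers in each library, ordered by the WT mean, with WT in grey and Pbrm1 cKO in red. Lyz2 is highest and Cd163 lowest in both groups, and the levels span more than 3 orders of magnitude.

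To ask whether the markers moved alike, the log2 ratio of each to Csf1r was taken within every library, a measure that does not depend on depth or scaling. The exact two-sided permutation test over 3 against 3 libraries cannot give a p below 0.1, and p-values were adjusted over the 9 ratios.

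Mrc1 gained most on Csf1r. Its log2 ratio to Csf1r was -2.51, -2.73 and -2.41 in WT and -1.35, -1.72 and -1.43 in cKO, a difference of 1.05, or 2.065-fold (exact permutation p = 0.1, adjusted 0.225). For Cd163 the ratios were -5.33, -5.60 and -5.40 in WT and -4.56, -4.96 and -4.58 in cKO, a difference of 0.75, or 1.68-fold (exact permutation p = 0.1, adjusted 0.225). Ptprc gained 0.43 and Fcer1g 0.21 on the log2 scale, with the same exact permutation p. In these 4 ratios no cKO library overlapped a WT library, and 0.1 is the smallest p the design allows. How often the ratios of other genes to Csf1r fail to overlap was not computed, so the 4 have no background share. For CPM, the groups did not overlap in 53.5% of all tested genes.

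The ratios of the other members overlapped between groups. Tyrobp differed by 0.17, Cd68 by -0.06, Adgre1 by -0.13, Lyz2 by -0.13 and Lyve1 by -0.25 on the log2 scale (exact permutation p = 0.3, 0.7, 0.2, 0.2 and 0.4). These p-values do not show that Csf1r and the 5 others moved alike. When 1 library was left out, the difference lay between -0.17 and -0.11 for Adgre1, between -0.19 and -0.09 for Lyz2 and between -0.15 and 0.03 for Cd68, whose sign turned without cKO replicate 2. It lay between 0.09 and 0.22 for Tyrobp and between -0.43 and -0.08 for Lyve1. With Tyrobp in place of Csf1r as the reference, Mrc1 gained 0.88, Cd163 gained 0.58 and Ptprc gained 0.27, again without overlap, whereas Fcer1g differed by 0.04 with overlap. Against that reference the ratios of Adgre1 and Lyz2 each differed by -0.30 and did not overlap (exact permutation p = 0.1 for both).

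**Figure D4:**
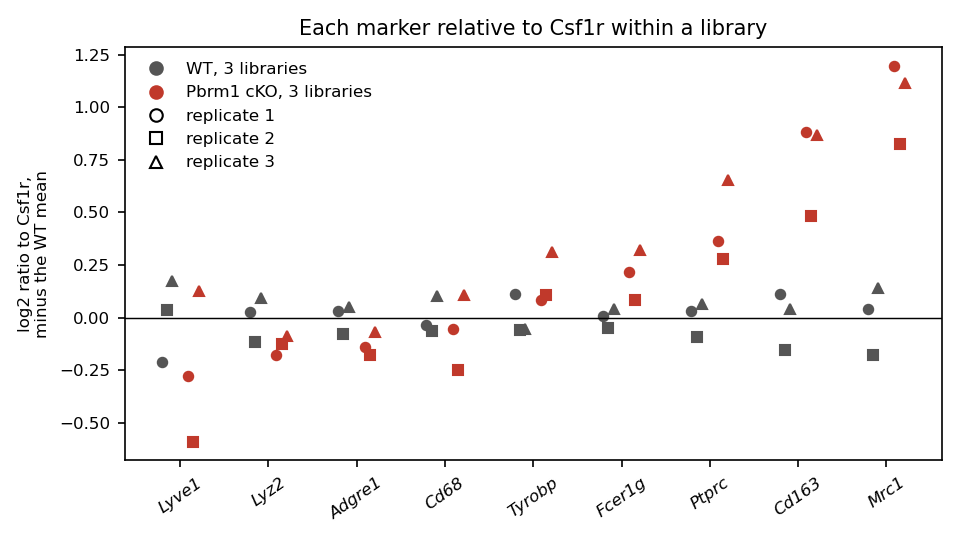
Log2 ratio of each marker to Csf1r within each library, minus the WT mean of that ratio, with WT in grey and Pbrm1 cKO in red and replicates 1 to 3 as circle, square and triangle. The red points lie above all grey points for Fcer1g, Ptprc, Cd163 and Mrc1 and overlap them for the other 5.

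The markers were also compared across the 6 libraries as a description, with no test, since the points share 2 groups and the same libraries. Pearson correlations of log2 CPM over the 45 pairs had a median of 0.964, and the 36 pairs without Lyve1 lay at 0.916 or above. The pairs with Lyve1 lay between 0.568, with Csf1r, and 0.817, with Cd68. After the group means were taken away the median fell to 0.054 and 18 of the 45 pairs were negative. WT replicate 3 was the highest of its group for 7 markers and the lowest for 1, and cKO replicate 3 for 5.

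Among 10597 other protein-coding genes with a mean of at least 5 CPM, those whose log2 CPM over the 6 libraries followed Csf1r most closely were Hecw2 (r = 0.998), Ints3 (0.996), Tgfbi (0.995), Stard9 (0.994) and Alox5ap (0.994). The list mixes genes known from myeloid cells, such as Alox5ap, an activator of leukotriene synthesis, with genes of general use, such as Ints3, a subunit of the Integrator complex. An r above 0.95 was found for 585 of these genes (5.52%), and for 24 of the 54 that belong to the lists of macrophage factors, receptors, kinases, other macrophage genes and resident genes. This r includes the difference between the groups, so it does not show that genes moved together apart from that difference. Within groups the closest were Pnn, Dhx9, Lats1, Rbm8a and Stk38l, with r between 0.996 and 0.999. These were the highest of 10597 values, each from only 6 libraries after the group means were taken away. Between the groups these genes had log2 fold changes of -0.45, -0.20, -0.34, -0.14 and -1.18, against 0.59 for Csf1r, and that of Dhx9 did not pass the test.

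Promoter sequence was examined because most of the markers were higher in cKO while the sizes of their rises differed. PU.1, encoded by Spi1, is the factor that myeloid genes commonly depend on, and its core motif GAGGAA was searched on both strands of the 250 bases before each start in RefSeq (GRCm38.p6). Entries were found for 6 of the 10 markers, with 2 windows for Ptprc. Mrc1 held 3 matches, at 180, 167 and 35 bases before the start, Cd68 held 1 at 225 bases and Ptprc held 1 at 158 bases, and the windows of Lyz2, Cd163 and Fcer1g held none. Of all 32851 windows of this length, 23.3% held a match. The other letters searched were TTGCNNAA (C/EBP), in 9.56% of all windows and in that of Cd68, and TGANTCA (AP-1), in 6.75% of all windows and at 2 places in that of Cd68. The windows of the markers with the largest rises, Mrc1 and Cd163, and of Cd68, with one of the smaller rises, are shown 5′ to 3′ in the direction of transcription, with the PU.1 core or its reverse complement in capitals.
Mrc1, chr2:14229164-14229413, plus strand: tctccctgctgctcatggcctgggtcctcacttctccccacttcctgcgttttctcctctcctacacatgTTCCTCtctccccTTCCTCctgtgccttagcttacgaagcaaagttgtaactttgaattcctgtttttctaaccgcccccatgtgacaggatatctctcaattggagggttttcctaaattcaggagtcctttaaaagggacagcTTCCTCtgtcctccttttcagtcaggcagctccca
Cd163, chr6:124304401-124304650, plus strand: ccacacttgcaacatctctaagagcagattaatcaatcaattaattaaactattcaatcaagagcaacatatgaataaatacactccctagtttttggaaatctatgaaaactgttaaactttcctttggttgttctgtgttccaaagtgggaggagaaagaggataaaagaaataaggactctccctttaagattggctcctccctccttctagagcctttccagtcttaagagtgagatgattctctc
Cd68, chr11:69666171-69666420, minus strand: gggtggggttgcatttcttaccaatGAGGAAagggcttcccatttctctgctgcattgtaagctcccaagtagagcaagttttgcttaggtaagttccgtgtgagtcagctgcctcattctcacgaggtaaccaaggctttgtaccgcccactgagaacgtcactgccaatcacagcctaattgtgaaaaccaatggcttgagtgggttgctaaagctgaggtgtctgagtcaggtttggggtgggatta
The marker with the largest rise thus held 3 matches, and the next held none. A match is a run of letters and not a measured binding site, and none of the 6 libraries measured binding.

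The genes around the markers were described by lists, read from the same fit without a test of any list. Over all 15376 tested genes, 21.9% were called as higher and 21.8% as lower. Among 12 transcription factors of macrophages, 6 rose and 1 fell, with a median log2 fold change of 0.23. The share called was 58.3%, against 43.7% of all tested genes. Spi1 rose from 6.41 ± 0.459 to 12.8 ± 0.108 CPM (log2 fold change 1.00, SE 0.101, edgeR adjusted p = 3.69e-06), and Ikzf1, the lymphoid and myeloid factor Ikaros, rose with a log2 fold change of 0.88 (edgeR adjusted p = 0.000114). Cebpa, a factor of early myeloid cells that other tissues also use, was at 20.2, 19.1 and 19.6 CPM in WT and 10.5, 13.8 and 11.7 CPM in cKO. It fell by 0.71 on the log2 scale (SE 0.098, edgeR adjusted p = 6.67e-05), so it moved against the markers, with no overlap. Runx1, a factor of blood cell formation, just missed the threshold (log2 fold change -0.22, edgeR adjusted p = 0.0512), and it was called as lower in 7 of the 13 alternatives. Cebpb, Nr1h3 and Bhlhe41 were among the others that did not pass the test.

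Most tested genes listed as receptors that pair with Tyrobp or Fcer1g were higher in cKO, as the adaptor genes were. Of 21 listed, 20 were matched and 12 tested, of which 11 rose and 0 fell, with a median log2 fold change of 0.98. These made up 91.7% of those tested, against 43.7% called over all tested genes. The activating Fc receptor gene Fcgr1 was at 12.5, 12.0 and 11.1 CPM in WT and 33.4, 27.1 and 35.9 CPM in cKO (log2 fold change 1.43, SE 0.104, edgeR adjusted p = 2.07e-07). Clec7a, the beta-glucan receptor dectin-1, rose with a log2 fold change of 1.45, Fcgr4 with 1.34 and Fcgr3 with 1.31. Clec7a was on the list although dectin-1 carries an activation motif of its own, and the counts and median above include it. Trem2, the lipid-sensing partner of DAP12, rose too (log2 fold change 0.61, edgeR adjusted p = 9.89e-05). Clec4e, which encodes the receptor Mincle, did not pass (log2 fold change -0.09, edgeR adjusted p = 0.699).

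Of 10 kinases and effectors that act below these adaptors, 7 rose and 0 fell, with a median log2 fold change of 0.47. The share called was 70%, against 43.7% of all tested genes. The call of Plcg2 (edgeR adjusted p = 0.0425) held in only 4 of the 13 alternatives, and the number called ran from 6 to 7 over them. Lcp2, the scaffold SLP-76, rose most (log2 fold change 1.09, SE 0.134, edgeR adjusted p = 2.17e-05), and the phosphatase Ptpn6 had a log2 fold change of 0.71 and the exchange factor Vav1 one of 0.54. Syk, the kinase that binds the phosphorylated adaptor, averaged 17.5 ± 0.0740 CPM over WT and 19.8 ± 1.35 CPM over cKO libraries. It was higher in every cKO library than in any WT library but did not pass the test (log2 fold change 0.17, edgeR adjusted p = 0.0889).

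Another list held 24 macrophage genes, also chosen with earlier results of these data known, and it shares Trem2 with the receptor list. Of these 24, 20 rose and 0 fell (83.3% called, against 43.7% of all tested genes). Their median log2 fold change was 0.70, beside the 0.67 of the 10 markers. Whether these transcripts and those of the markers came from the same cells was not tested. The complement genes C1qb and C1qc had the largest log2 fold changes of the list. C1qb was at 21.7, 22.7 and 24.0 CPM in WT and 82.7, 81.6 and 83.8 CPM in cKO, a log2 fold change of 1.86 (SE 0.057, edgeR adjusted p = 5.19e-11), while C1qc had 1.49, Clec12a, an inhibitory lectin receptor, 1.30 and C1qa 1.25. No tested gene of these receptors, effectors and further macrophage genes had an unadjusted edgeR p under 0.05 in the lower direction. Mertk, a receptor for dying cells, Cybb, the catalytic subunit of the phagocyte oxidase, and Adgre5 had log2 fold changes of -0.09, -0.06 and -0.13 and did not pass. Of these, only Adgre5 was lower in every cKO library than in any WT library. For Cx3cr1, the fractalkine receptor, cKO replicate 2 stood apart from all other libraries, at 6.91, 8.77 and 6.91 CPM in WT and 7.14, 15.7 and 7.27 CPM in cKO (log2 fold change 0.43, edgeR adjusted p = 0.187).

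Residency and recruitment genes were both raised in part. Of 16 genes known from resident macrophages, 13 were tested, 6 rose and 1 fell, with a median log2 fold change of 0.37. The share called was 53.8%, not far from the 43.7% of all tested genes. Pf4, a chemokine gene also made by platelets, was at 85.6, 77.4 and 80.7 CPM in WT and 219, 184 and 237 CPM in cKO (log2 fold change 1.39, SE 0.078, edgeR adjusted p = 1.73e-08). Folr2, a folate receptor of resident macrophages, was at 6.62, 5.67 and 6.62 CPM in WT and 11.6, 11.7 and 13.1 CPM in cKO (log2 fold change 0.95, edgeR adjusted p = 1.27e-05). Selenop and F13a1 had log2 fold changes of 1.06 and 1.05. Igf1, which stromal cells also express, fell by 0.29 on the log2 scale (edgeR adjusted p = 0.00183), and Timd4 reached no more than 2 counts in any library.

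Of 18 genes listed for recently recruited monocytes and their offspring, 14 were tested, 8 rose and 1 fell, with a median log2 fold change of 1.18. The share called was 64.3%, against 43.7% of all tested genes. The 8 that rose include H2-Eb1, H2-Aa, H2-Ab1 and Cd74, which all serve class II presentation. The class II antigen presentation genes H2-Eb1, H2-Aa and H2-Ab1 had the largest log2 fold changes of the list. H2-Eb1 rose from 4.21 ± 0.183 to 21.6 ± 1.73 CPM (log2 fold change 2.36, SE 0.105, edgeR adjusted p = 1.96e-09), H2-Aa had a log2 fold change of 2.24, and H2-Ab1 one of 2.17. Plac8 followed with 1.92, F10, the clotting factor X gene, with 1.57, and Cd74, the class II invariant chain, came after Ccr2 with 1.38. F10 rested on 9 to 40 counts per library. In WT, Plac8 averaged 23.5 CPM per kb of exon and Ccr2 0.217. Ccr2, the chemokine receptor of blood monocytes, was low but rose from 1.47 ± 0.421 to 4.28 ± 0.287 CPM (log2 fold change 1.55, SE 0.202, edgeR adjusted p = 3.73e-05), while Ly6c2 held no more than 7 counts per library. Fn1, the fibronectin gene that stromal cells also express, fell by 0.33 on the log2 scale. Vcan was lower in every cKO library than in any WT library but did not pass the test (log2 fold change -0.10, edgeR adjusted p = 0.114). Whether the medians of the resident and recruited lists differ was not tested, nor was how much of the recruited list came from monocytes.

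Other leukocytes were looked for through their defining genes, since Ptprc, Tyrobp and Fcer1g could come from them. Their calls are read beside the 43.7% of all tested genes that were called. Of 14 T cell markers, 3 were tested (Lck higher, Trbc2 and Cd28 lower). The call of Cd28 was lost in 5 of the 13 alternatives and that of Lck in 1. The summed T cell markers lay at 8.02 to 8.96 CPM in WT and 7.11 to 8.10 CPM in cKO. Cd8a was at 0 in all libraries, and Cd3e held at most 5 counts. Of 9 B cell markers 2 were tested and 1, Ighm, was lower, with sums of 2.54 to 4.38 CPM in WT and 2.38 to 3.37 CPM in cKO. None of 10 natural killer cell markers passed the filter, and their sum stayed between 0.481 and 0.878 CPM in all libraries.

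Neutrophils, mast cells and dendritic cells were measured in the same way, beside the same 43.7%. Of 12 neutrophil markers, Ly6g, Retnlg and Stfa2 were at 0 in all libraries. Of the 5 tested, Ltf, which reproductive tract epithelium also makes, and Mmp8 were higher and Mmp9 lower, with sums of 262 to 304 CPM in WT and 407 to 428 CPM in cKO, mostly from Ltf. The groups overlapped for Mmp9 (edgeR adjusted p = 0.0385), and its call was lost in 5 of the 6 fits that left out 1 library, all but that without cKO replicate 2. Of 10 mast cell markers, 7 held at most 3 counts per library, and of the 3 tested Kit was higher and Gata2 lower. Their sums were 75.9 to 89.5 CPM in WT and 71.6 to 79.5 CPM in cKO, mostly from Gata2, with means of 76.05 and 65.65 CPM. Of 10 dendritic cell markers 2 were tested and Zbtb46 was higher, with sums of 55.2 to 57.0 CPM in WT and 60.9 to 65.4 CPM in cKO. Most of that came from Cadm1, with means of 40.7 and 44.6 CPM, and Zbtb46, with 14.6 and 17.5 CPM. Xcr1 and Clec9a held at most 1 count and Flt3 at most 7. The calls of Kit and Zbtb46 were each lost in 5 of the 13 alternatives, and that of Gata2 in 4.

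Markers of cell types other than leukocytes were read in the same way, beside the 43.7% of all tested genes that were called. Of 12 fibroblast markers 11 were tested, 8 rose and 1 fell, with a median log2 fold change of 0.82, and their sum was 5002 to 5572 CPM in WT and 7486 to 7839 CPM in cKO. All 10 epithelial markers were tested and 8 rose, with sums of 970 to 1055 CPM in WT and 1238 to 1379 CPM in cKO. Of the 10 smooth muscle markers 5 rose and 1 fell (median 0.26), with sums of 3498 to 3570 CPM in WT and 4272 to 4769 CPM in cKO, and Des had a log2 fold change of 1.21. Of 10 blood endothelial markers 3 rose and 1 fell (median 0.05), with sums of 386 to 409 CPM in WT and 335 to 344 CPM in cKO. Kdr, which encodes a receptor for vascular endothelial growth factor, fell by 0.87 on the log2 scale (edgeR adjusted p = 3.65e-07) and the other 9 summed to 212 to 223 CPM in WT and 224 to 253 CPM in cKO, among them Vwf, von Willebrand factor, with a log2 fold change of 1.71. Among 12 genes that respond to tissue dissociation 7 rose and 1 fell (median 0.23), with sums of 505 to 583 CPM in WT and 668 to 741 CPM in cKO, and Hspa1a had a log2 fold change of 1.56. The part of cell composition or of the handling of the cells in the rise of the macrophage markers was not tested.

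**Figure D5:**
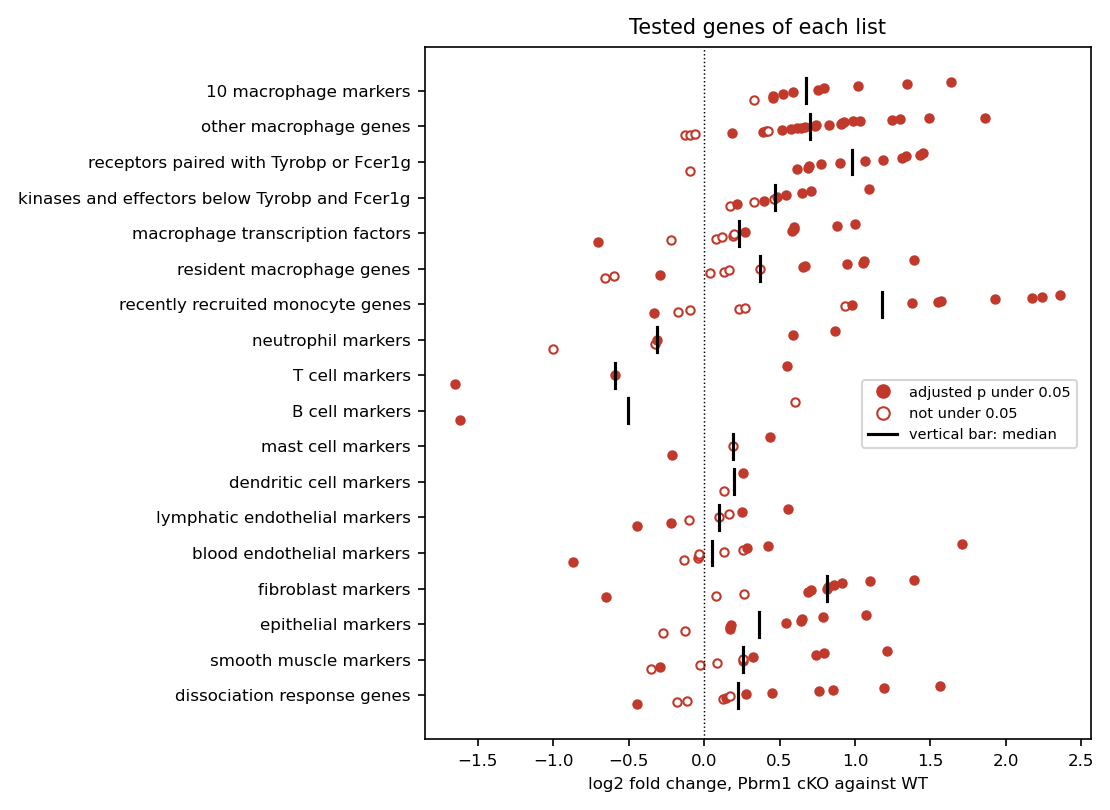
Log2 fold change, Pbrm1 cKO against WT, of every tested gene of each list drawn (filled points for an edgeR adjusted p under 0.05, open points otherwise, vertical bar for the median of the list). Of the lists with tested genes, only that of the colony stimulating factor genes is not drawn. The bar of the 10 markers lies at 0.67 and that of fibroblast markers at 0.82. Those of neutrophil, T cell and B cell markers lie below 0 but rest on only 5, 3 and 2 tested genes.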

How the data were processed

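Total RNA of 6 libraries was sequenced, 3 WT and 3 Pbrm1 cKO. The authors deposited whole-number read counts per gene, made per the file headers with featureCounts 1.6.4 over exons in reverse-stranded mode, and the submitters' processing notes also name cutadapt, HISAT2 and GRCm38.p5. The annotation was GENCODE M18. With default options, reads that map to several genes or places are not counted. Symbols came from GENCODE M21 for 54079 of 54232 genes (99.7%). Of the neighbours that overlap a member on the same strand, Mir6983 in Csf1r, Mir511 in Mrc1 and A130071D04Rik in Ptprc held 0 to 11 counts.

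For the comparison of counts, filterByExpr and TMM factors were applied and edgeR's quasi-likelihood method (version 4.0.16, R 4.3.3) gave two-sided p-values, adjusted by Benjamini-Hochberg over 15376 genes, with a threshold of 0.05. An SE is the absolute log2 fold change over the square root of F, and 95% intervals use edgeR's total degrees of freedom. Log2 ratios to Csf1r used a prior of 0.5 counts and an exact permutation test over libraries. The floor of 3 counts covers counting error only, since reads carried no molecular identifiers. No pair of libraries within a group was a duplicate, with a chi-square per gene of 1.31 to 1.60. Same-numbered libraries did not deviate together (correlations -0.02 to 0.09), so numbers were not taken to pair them.

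The members and lists were chosen with earlier results of these data known. Named genes are the members, up to 4 called genes of each list with the largest change, factors or receptors whose level was needed, and the 5 genes most like Csf1r by each measure. Other names were chosen after their values were seen. Some genes of the lists are not reported here by name. Alternatives were DESeq2 1.42.0, limma 3.58.1 with voom, other scalings and filters, a replicate block and leaving out each library.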

Additional observations from a re-analysis of the deposited data

How the results depend on the processing

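The 9 calls among the 10 markers held under all 13 alternatives, and no marker changed direction. Leaving out each library in turn gave log2 fold changes of 0.55 to 0.63 for Csf1r, 1.56 to 1.71 for Mrc1, 1.28 to 1.44 for Cd163 and 0.18 to 0.46 for Lyve1, whose adjusted p lay between 0.0746 and 0.534 over all alternatives. The count of called genes ran from 5532 to 7054. With the replicate number as a block (replicate block), 9 markers and 6908 genes were called and no member's call changed, although the numbers do not mark a shared animal or batch. The log2 ratio of Cd68 to Csf1r turned to 0.0279 without cKO replicate 2 (range -0.15 to 0.0279) and was -0.0135 without WT replicate 3. The ratio of Lyve1 was -0.0758 without cKO replicate 2, -0.16 without WT replicate 3 and -0.434 without cKO replicate 3, that of Tyrobp was 0.0948 without cKO replicate 3, and that of Lyz2 was -0.0854 without WT replicate 3. The prior count changed no ratio's direction. Runx1 made a second lower call among the transcription factors under DESeq2, limma-voom, relative log expression factors, no filter and the replicate block, and without WT replicate 3 or cKO replicate 2. Small marker lists also changed. DESeq2 called 1 T cell, 1 mast cell and 0 dendritic cell markers. A minimum of 10 counts in every library left 0 B cell calls, and no filter gave 2 dendritic cell calls. Leaving out libraries gave 0 to 1 colony stimulating factor ligands (1, lower, without cKO replicate 2), 1 to 2 B cell markers (2 without WT or cKO replicate 2), 0 to 2 mast cell markers (0 without WT replicate 2 or cKO replicate 1 or 3, and 1 without WT replicate 1 or 3), 0 to 1 dendritic cell markers (0 without WT replicate 2 or 3 or cKO replicate 1 or 3), 2 to 5 lymphatic endothelial markers (2 without WT replicate 1 or 2 or cKO replicate 1 or 3) and 5 to 8 epithelial markers (5 without WT replicate 1), and the causes were not tested. Natural killer markers could be fitted only without a filter, with 0 calls. Depth limits Cd163 and Lyve1, which held 28 to 79 counts per library.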
